A study of Caenorhabditis elegans with 8 samples.

Results

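Broad SKN-1 regions were stretches of at least 1500 bp over which peaks of the 4 deposited peak lists ran together. They were chosen by joining the peaks of all 4 lists wherever they shared at least 1 bp and keeping the joined regions whose end minus start reached 1500 bp. This gave 650 broad regions of 35430 merged regions, or 1.83%, and these held 1.45 Mb, or 9.91% of all merged bases. The lists came from chromatin immunoprecipitation with sequencing of whole Caenorhabditis elegans fed OP50 bacteria, in which SKN-1 carried GFP. WT 1 and WT 2 are 2 samples of the genotype labelled WT, and GF 1 and GF 2 are 2 of the genotype labelled SKN-1gf(lax188), a gain-of-function allele, all 4 titled as with antibody and listing a Chromotek reagent. Another 4 samples, titled as without antibody, were not analysed here. Whether signal without antibody also lay in the broad regions was therefore not tested. No age, stage or strain name is given in the labels, nor whether replicates were grown separately.

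SKN-1, the worm relative of the mammalian factor Nrf2, binds DNA and activates transcription. It is known for turning on detoxification and antioxidant genes in the intestine, for a role in the ASI sensory neurons, and for specifying endoderm in the embryo. The lax188 form is known as a constitutively active form of the protein. Peaks of a transcription factor are usually narrow, whereas proteins and marks that spread along genes usually give broad ones.

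Width, list membership, peak number and fold enrichment all come from the peaks that chose the regions, so they are described without a test. Fold enrichment is the authors' value per peak, a ratio over the peak caller's background, and carries no replicate error. Depth is unknown, because read counts were not part of the lists. Intervals in brackets are exact 95% binomial intervals and cover counting error over regions only. The genotypes were not tested against each other, since 2 lists per genotype allow no exact two-sided p below 0.33. Coordinates are those of the lists, whose processing notes name build ce10. Gene names come from a RefSeq table of assembly WBcel235, a different build, so gene edges may be somewhat off; moving all genes by 100 bp either way left 93.2% of the regions on a protein-coding gene. Exons, introns and strand were not assigned.

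Widths ran from 1501 to 9848 bp with a median of 1965 bp, against a median of 296 bp for the other 34780 regions. There were 307 regions of 2000 bp or more, 82 of 3000 bp or more, 30 of 4000 bp or more and 16 of 5000 bp or more. The 4 regions just inside the threshold measured 1501, 1501, 1501 and 1502 bp and lay at btf-1, T10E9.4, jmjc-1 and F23B12.1. The 4 just outside measured 1499, 1499, 1498 and 1495 bp and lay at grl-25, vab-1, ephx-1 and myo-3, so the threshold cuts through a continuous range. The count rested most on WT 2: without that list 412 regions reached 1500 bp, and without GF 1 460 did.

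**Figure D1:**
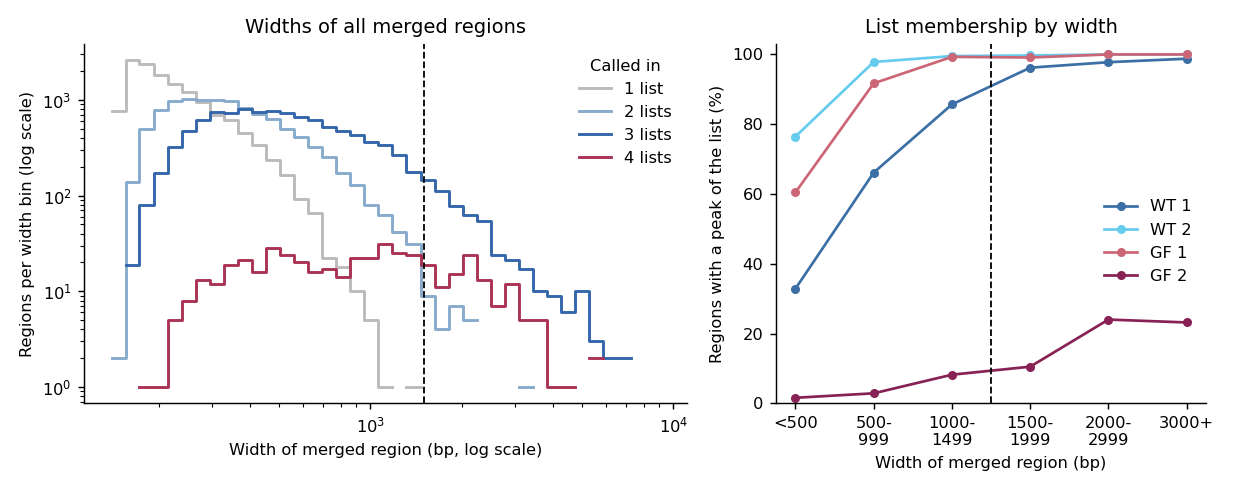
Left, the number of merged regions per width bin (both axes log scale) split by the number of lists that called them, with the 1500 bp threshold dashed; right, the share of regions (%) in each width class that hold a peak of WT 1, WT 2, GF 1 or GF 2. Regions called in 1 list are absent from the right of the threshold, and the share with a GF 2 peak is 1.58% below 500 bp and 23.2% at 3000 bp or more.

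Nearly all broad regions were found in both genotypes. WT 1 had a peak in 631 of the 650 (97.1%), against 41.6% of all merged regions. WT 2 had a peak in 649 (99.8%), against 81.4%, and GF 1 in 647 (99.5%), against 67.9%. GF 2, the list with 905 peaks in all, had a peak in 109 (16.8%, 14 to 19.9), against 2.32%. All 4 lists met in 108 broad regions (16.6%, 13.8 to 19.7), against 1.28% of all merged regions. WT 1, WT 2 and GF 1 without GF 2 accounted for 519 more, WT 2 with GF 1 alone for 19, and only 4 regions had another combination. No broad region came from 1 list alone, whereas 39.9% of the other regions did. A wider region has more room for a peak of any list, so these shares describe the selection and are not evidence of stronger sharing.

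Most broad regions contained a single wide call. In 553 of the 650 (85.1%, 82.1 to 87.7) at least 1 single peak was itself 1500 bp or wider, and the other 97 reached the width only by joining. WT 2 had 433 peaks of that width, GF 1 had 376, WT 1 had 68 and GF 2 had 15. This is 1.47% of the WT 2 list, 1.5% of GF 1, 0.427% of WT 1 and 1.66% of GF 2. The widest single peak measured 4718 bp in WT 1, 6102 bp in WT 2, 7167 bp in GF 1 and 4666 bp in GF 2. A broad region held between 2 and 14 peaks over the 4 lists, with a median of 5.

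WT 2 and GF 1 covered the regions almost end to end, while WT 1 broke them up. The median share of a region covered was 94.8% for WT 2 (n = 649) and 90.5% for GF 1 (n = 647), but 53.0% for WT 1 (n = 631) and 31% for GF 2 (n = 109). WT 1 had a median of 2 peaks per region with a median peak width of 405 bp, and WT 2 and GF 1 had a median of 1, with widths of 1446 and 1224 bp. WT 1 had more peaks than WT 2 in 47.8% of the regions both called and fewer in 11%. The shared part of the joint bases in a region had a median of 80.7% for WT 2 with GF 1, which differ in genotype, and 55.8% for WT 1 with WT 2, which do not. WT 2 and GF 1 hold most peaks of 1500 bp or more, so selection on width favours their coverage and shared bases. By their sample records, the 2 lists with most shared bases came from different genotypes. Names inside the WT 2 list carry the WT replicate 1 label, so its identity rests on that record. How the depth of the libraries moves with coverage and shared bases was not tested, since the lists carry no read counts. Fold enrichment per peak, which the lists do carry, was not tested against them either.

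**Figure D2:**
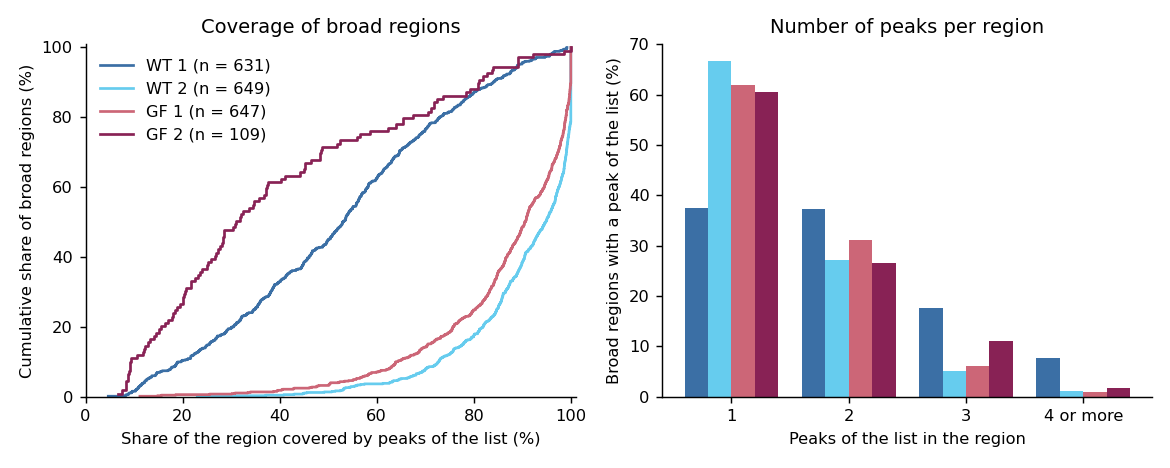
Left, the cumulative share of broad regions (%) against the share of the region covered by peaks of a list (%), for regions with a peak of that list; right, the share of those regions (%) with 1, 2, 3 or 4 or more peaks of the list. The WT 2 and GF 1 curves rise late, with medians of 94.8% and 90.5%, and the WT 1 curve rises early, with a median of 53.0%.

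The strongest summits of WT 1, WT 2 and GF 1 lay farther apart in broad regions than in the others. The strongest summits of WT 1 and WT 2 lay a median of 148 bp apart in broad regions (n = 630) and 34 bp apart in the others (n = 11802). For WT 1 with GF 1 the medians were 182 and 38 bp, and for WT 2 with GF 1 they were 172 and 36 bp. In 52.2% of the regions shared by WT 2 and GF 1 the strongest summits were within 200 bp of each other. GF 2 was farther off, with medians of 420, 560 and 350 bp from WT 1, WT 2 and GF 1 in broad regions. Summits can lie farther apart in a wider region, so the gap follows at least in part from the selection on width. The distances were not scaled by width.

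The highest folds in broad regions were modest, with a median per region of 1.59 in WT 1 and 1.79 in WT 2. The corresponding median was 1.93 for GF 1 and 1.61 for GF 2. The medians of the other regions were 1.46, 1.47, 1.54 and 1.51 in the same order. Each value is the highest over a list's peaks in the region, which favours regions with several peaks. Among the 12 widest regions the order by width was not the order by fold. The region at vit-6 reached a fold of 3.79 in GF 1, while the first, at ketn-1, had a highest fold of 1.89. How fold moves with width over all broad regions was not tested.

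Of the 12 widest regions, 4 lay inside long genes for structural proteins of muscle and of the attachment between muscle, epidermis and cuticle. The first, of 9848 bp at 2783178 to 2793025 on chromosome V, lay within ketn-1, which encodes the giant actin-binding muscle protein kettin. Its highest folds were 1.49 in WT 1, 1.56 in WT 2 and 1.89 in GF 1, with no peak in GF 2. WT 2 covered 93.3% of it with 2 peaks and GF 1 88.7% with 3, whereas WT 1 covered 23.2% with 6. The second, of 7230 bp at 2667538 to 2674767 on chromosome III, lay within let-805, which encodes myotactin, a transmembrane protein of epidermal attachment sites. GF 1 called 99.1% of it as 1 peak of 7167 bp, with a fold of 1.97, against 1.94 in WT 2 and 1.54 in WT 1. The third, of 6704 bp on chromosome I (4062600 to 4069303; folds 1.58, 1.80 and 1.72 in WT 1, WT 2 and GF 1), lay in unc-89, which encodes an obscurin-like protein of the muscle M-line. The fifth, of 5893 bp on chromosome I (11764782 to 11770674; 1.84, 1.94 and 1.96), lay in vab-10, a spectraplakin gene whose products anchor the epidermal cytoskeleton. In these 4 regions GF 2 had no peak.

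Other genes among the 12 widest had different roles. The fourth lay in pes-7 (5979 bp, chromosome I), the ninth in the Patched-family gene ptc-3 (5526 bp, chromosome II; folds 1.88, 1.99 and 2.43), the tenth in Y6B3B.1 and the twelfth in the neprilysin-family peptidase gene nep-17. The sixth, at 10542615 to 10548415 on chromosome II, lay in mnk-1, a homologue of the MAP kinase-interacting kinases, and was called in all 4 lists with folds of 2.13, 2.12, 1.78 and 1.6 in WT 1, WT 2, GF 1 and GF 2. The seventh, at 8260928 to 8266623 on chromosome IV, covered the whole of vit-6, which encodes a yolk protein made in the intestine, with folds of 2.47, 2.13, 3.79 and 2.10. At vit-6 the lists covered 88.5%, 98.7%, 99.3% and 81.9% of the region in that order, so that even the short GF 2 list called most of it. The eighth and the eleventh overlapped no protein-coding gene of the table.

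**Figure D3:**
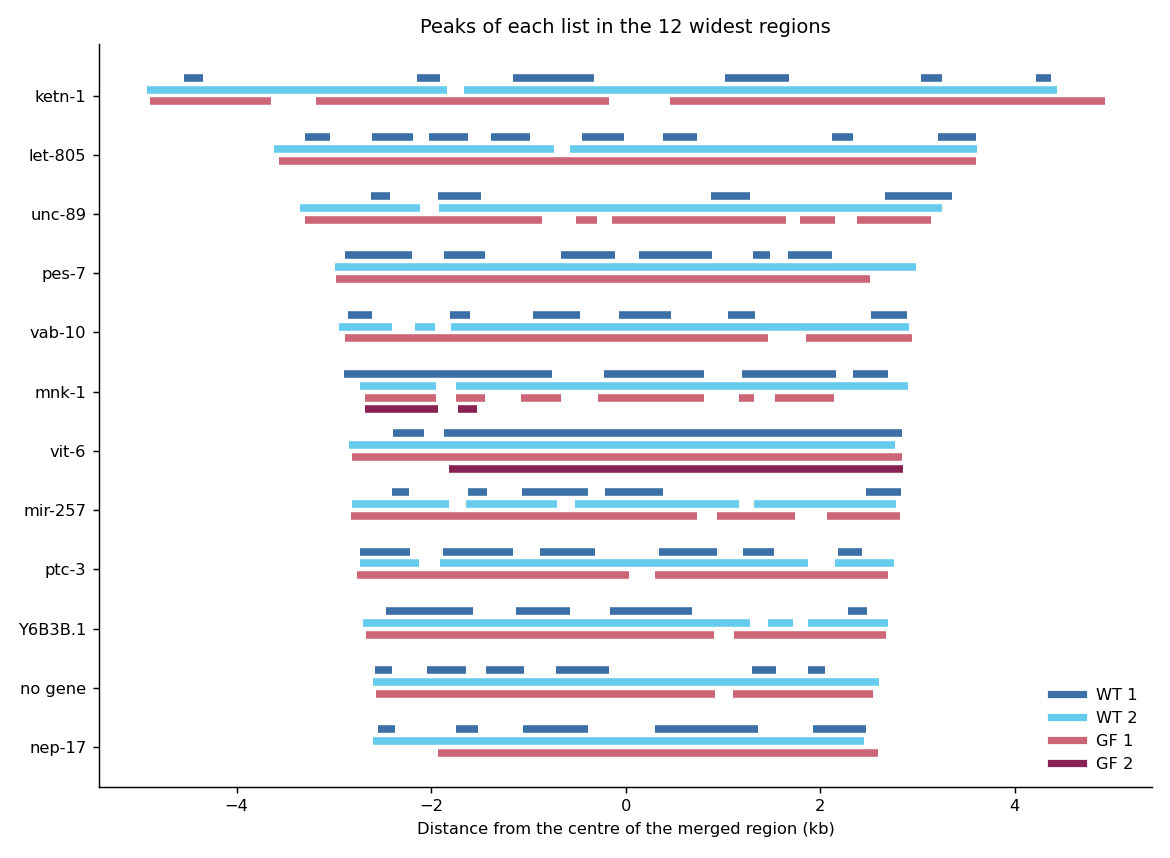
Peaks of WT 1, WT 2, GF 1 and GF 2 (coloured bars) in the 12 widest merged regions, placed by distance from the region's centre (kb) and named by the gene with most overlap (mir-257 is the microRNA gene in the eighth). WT 2 and GF 1 form long bars and WT 1 short separate ones, and GF 2 appears at mnk-1 and vit-6 only.

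Several long genes held more than 1 broad region. Of the genes overlapped, 39 held 2 or more and 10 held 3 or more. The gene vab-10 held 5, which together took 13003 bp, or 22.6%, of its 57568 bp. The muscle genes unc-89 and unc-22, the latter encoding the giant kinase twitchin, held 3 each with 10669 and 8371 bp. Also with 3 were mlt-11, a gene needed for moulting, in which broad regions took 81.5% of 11333 bp, and cpna-1, a muscle attachment gene, with 7600 bp. The rest of the 10 were Y43F8B.3 with 8246 bp, C06B8.7 with 6148 bp, trp-4 with 5971 bp, cdh-1 with 5939 bp and lin-42 with 5099 bp. In these genes GF 2 had no peak in any broad region.

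Broad regions followed protein-coding genes. Of the 650, 605 (93.1%, 90.8 to 94.9) overlapped a protein-coding gene, against 76.1% of all merged regions, and a wide region overlaps more genes by its width alone. Summits, which have no width, were inside a protein-coding gene for 87.4% of the WT 1 peaks in broad regions, 89.7% of the WT 2 peaks, 88.5% of the GF 1 peaks and 85.7% of the GF 2 peaks. The corresponding shares for peaks in the other regions were 70.6%, 73.7%, 73.5% and 64.2%. In 403 regions (62.0%, 58.1 to 65.7) the whole region lay within 1 gene, against 67.8% of all merged regions. A further 153 (23.5%) held a gene end and 49 (7.54%) took in at least 1 gene whole. More than 1 protein-coding gene was overlapped by 102 regions (15.7%), with a maximum of 4. With at least 500 bp required in each gene this share was 7.85%.

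Together broad regions overlapped 665 of 19983 protein-coding genes, or 3.33%. The median length of these genes was 3415 bp, against 2005 bp for all. A broad region was found at 1.79% of genes under 2000 bp, 3.6% of those from 2000 bp to under 5000 bp, 6.22% of those from 5000 bp to under 10000 bp and 10.8% of those of 10000 bp or more. Short genes could be filled from end to end: 201 genes had at least 80% of their length inside broad regions. Among 118 regions that overlapped a single gene and covered at least 80% of it, the median share of the region inside the gene was 94.9%, a value that the choice of regions on 1 gene favours. Where a region lay inside 1 gene (414 pairs of region and gene), its edge was a median of 813 bp from the nearer gene end. Genes filled in this way included metr-1, the gene of methionine synthase, which was covered whole by a 4638 bp region with folds of 1.97 in WT 1, 1.95 in WT 2 and 2.47 in GF 1, and cbd-1, an eggshell protein gene, of which 99.0% lay in a 4686 bp region with folds of 1.67, 1.87, 2.19 and 2.0.

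**Figure D4:**
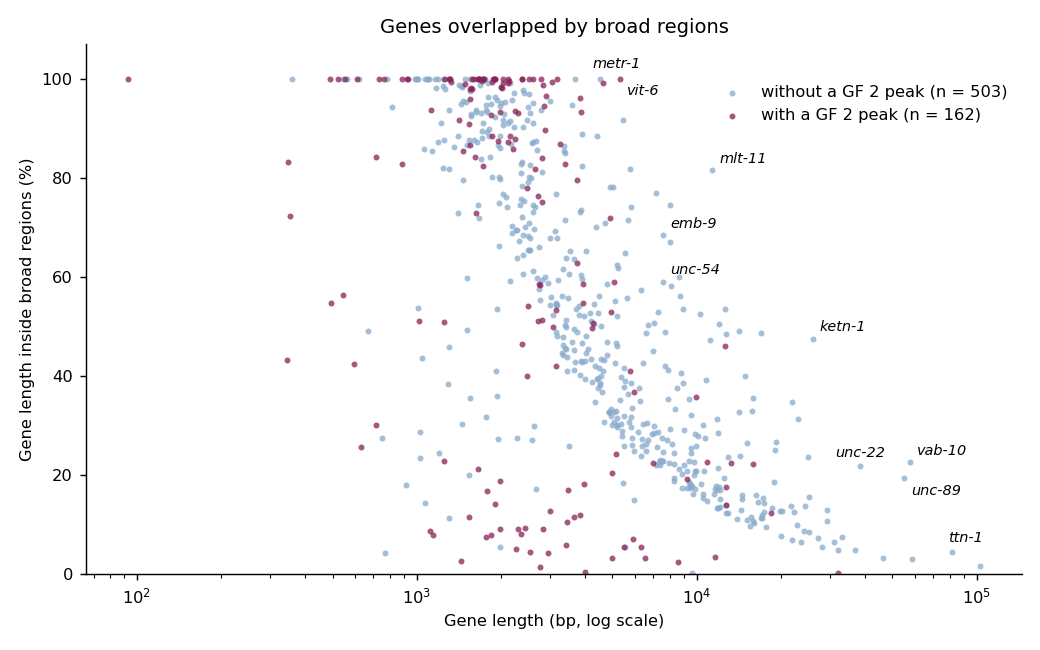
Each point is 1 of the 665 protein-coding genes overlapped by a broad region, by its length (bp, log scale) and the share of its length inside broad regions (%), coloured by whether any of those regions held a GF 2 peak (162 genes) or not (503). Genes near 100% are mostly short, and long genes such as ttn-1 and vab-10 have small parts of their length inside.

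The gene groups below are described by the number of members overlapped by a broad region, to be read against 3.33% of all protein-coding genes. Neighbouring or nested genes can share a region, and near-identical gene copies (myosins, actins, tubulins, heat shock proteins, elongation factor 1A, vitellogenins) may share reads, so single members of these families are uncertain. Counts of members with a GF 2 peak are to be read against 162 of all 665 overlapped genes. No group was tested.

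Structural genes of muscle and of basement membrane were often overlapped. Of 43 muscle genes, 9 (20.9%) were overlapped: the myosin heavy chain genes unc-54, myo-1, myo-2 and myo-3, the giant protein genes unc-89, unc-22 and ttn-1, the calcium pump gene sca-1 and the actin gene act-4. The region in unc-54, the main body wall myosin, measured 4477 bp with folds of 1.52 in WT 1, 1.78 in WT 2 and 2.01 in GF 1, and that in myo-1, a pharyngeal myosin, 4711 bp with folds of 1.56, 1.70 and 1.88. Among muscle genes of 10000 bp or more, 3 of 4 had a broad region, against 10.8% of all genes of that length. Among those from 5000 bp to under 10000 bp 4 of 15 had one, against 6.22%, and none of the 14 under 2000 bp did. Of 13 basement membrane genes, 5 (38.5%) were overlapped, namely the type IV collagen genes emb-9 and let-2, the papilin gene mig-6 and the laminin genes epi-1 and lam-3. These genes are long, and 3 of the 8 of 10000 bp or more had a broad region, against 10.8% of all genes of that length. The emb-9 region measured 5176 bp, and its highest folds were 1.49, 1.83 and 2.03 in WT 1, WT 2 and GF 1. WT 1 split it into 7 peaks, while WT 2 and GF 1 each had 1. GF 2 had a peak in a broad region of 1 of these 14 muscle and basement membrane genes, sca-1.

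Cuticle collagen genes, which are short, were overlapped at 19 of 172 (11%). Of these, 9 lay whole inside a broad region, dpy-13 and col-102 among them. The dpy-13 region measured 1647 bp with folds of 1.81, 2.33 and 2.37 in WT 1, WT 2 and GF 1. Most covered bases were at col-71, in a 2350 bp region with folds of 2.22, 2.2 and 2.90. GF 2 had no peak in the broad regions of any of the 19. The count was 12 without WT 2 and 11 without GF 1. C-type lectin genes were overlapped at 13 of 239 (5.44%), with 1 of them, clec-264, in a region with a GF 2 peak. That region took 12.7% of clec-264.

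Genes of central metabolism, translation and protein folding were overlapped over very different parts of their length, from 2.35% at the chaperone gene dnj-29 to the whole gene. In the methionine and S-adenosylmethionine cycle 6 of 14 genes (42.9%) were overlapped: metr-1, ahcy-1, sams-1, mthf-1, cbs-2 and pmt-2, the last over 27% of its length. The ahcy-1 gene, for adenosylhomocysteinase, lay whole in a 3037 bp region that each of the lists covered to 86.4%, 90.6%, 89.9% and 89.1%. The sams-1 region, at the S-adenosylmethionine synthetase gene, measured 2478 bp with folds of 1.82, 1.83, 2.85 and 1.64 in WT 1, WT 2, GF 1 and GF 2. Of 24 genes of glycolysis and gluconeogenesis 5 were overlapped, namely pck-1 and mdh-1 over 85.0% and 98.5% of their length, and enol-1, pck-2 and gpd-2 over 51.3%, 36.8% and 22.9%. Of 61 heat shock and chaperone genes 8 (13.1%) were, led by hsp-110, the cytosolic Hsp90 gene hsp-90, the constitutive Hsp70 gene hsp-1 and the endoplasmic reticulum Hsp70 gene hsp-4. At hsp-90 the folds were 2.63, 2.99, 2.34 and 1.42. Of 38 translation factor genes 5 were overlapped, led by eef-2, eef-1B.2, eef-1G and eef-1A.1.

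Cytosolic ribosomal protein genes, with a median length of 748 bp, were overlapped at 11 of 78 (14.1%). All 11 lay in regions with a GF 2 peak, among them rpl-3, rpl-4, rplp-0 and rpl-27A. At rpl-3 the region measured 1832 bp and the fold was highest in GF 1 at 2.77, with 2.25 in GF 2, 2.22 in WT 2 and 2.10 in WT 1. Each list covered at least 95.7% of it. With a width of 1000 bp 43 ribosomal protein genes were overlapped, and with 2000 bp 5.

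Intestinal and germline genes were both present. Of 33 intestinal and endodermal genes 9 (27.3%) were overlapped, led by the intermediate filament gene ifc-2, the acyl-CoA dehydrogenase gene acdh-1, the desaturase gene fat-6 and ifc-1, with GF 2 peaks in the regions of 4. The GATA factor genes of the endoderm on that list, such as elt-2 and end-1, were not among the 9. Of 36 germline genes 9 (25%) were overlapped, led by cbd-1, the P granule gene pgl-1, the RNA helicase gene cgh-1 and the translational repressor gene gld-1, with GF 2 peaks for 6. Of 7 yolk genes 3 were overlapped, vit-6, vit-2 and the yolk receptor gene rme-2. Of 16 tubulin genes 3 were overlapped, tba-2, tbb-1 and tbb-2, each with a GF 2 peak.

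Genes often tied to SKN-1 were near the share of all genes for phase II and redox functions. They were above it for regulators, a group of long genes. Of 34 phase II and redox genes only sqst-1 (2.94%), the p62 autophagy receptor gene, was overlapped, by a 1947 bp region with folds of 1.59 in WT 1, 1.78 in WT 2 and 1.78 in GF 1. Merged regions of any width overlapped 25 of the 34. Among 49 glutathione S-transferase genes 1 (gst-40) was overlapped, among 67 UDP-glucuronosyltransferase genes 1 (ugt-65), and among 74 cytochrome P450 genes 1 (cyp-37A1). Of 32 genes that regulate SKN-1 or signal to it 4 (12.5%) were: gfat-1, the Mediator subunit gene mdt-15, the insulin receptor gene daf-2 and, by 96 bp, tir-1. These 32 genes had a median length of 5632.5 bp. Among those of 10000 bp or more 2 of 5 had a broad region, against 10.8% of all genes of that length. These 2 were daf-2, over 3.3% of its length, and tir-1, over only 0.3%, so the count rests in part on the edge of a region. Among those from 5000 bp to under 10000 bp 1 of 14 had one, against 6.22%. The daf-2 region measured 1528 bp in a gene of 46333 bp, with folds of 1.51, 1.55 and 1.69 in WT 1, WT 2 and GF 1.

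The listed members of transcription factor and receptor families were at or below the share of all genes. None of the 33 listed Hox and homeodomain genes had a broad region, although each was overlapped by a merged region of some width. The list is partial: the homeodomain genes unc-62 and zfh-2, not on it, had broad regions of 1558 and 1566 bp. Other transcription factor genes, such as egl-18 and ets-4, had broad regions of 3889 and 2345 bp. Nuclear hormone receptor genes were overlapped at 5 of 274 (1.82%), chemoreceptor genes at 6 of 1367 (0.439%) and F-box genes at 1 of 322 (0.311%). None of 81 histone genes, 33 aminoacyl-tRNA synthetase genes, 31 major sperm protein genes or 8 SR splicing factor genes was overlapped. The genes of the aminoacyl-tRNA synthetases were not short, with a median of 3547 bp, and 29 of them were overlapped by a merged region of some width. The listed neuronal genes were overlapped at 1 of 30, the ankyrin gene unc-44, in a region of WT 2 and GF 1 only. That list is partial, and neuronal genes not on it were overlapped, such as trp-4 by 3 broad regions and lad-2 by 2. Of 33 proteasome genes 1 (rpn-2) was overlapped and of 49 respiratory chain genes 2, atp-2 over 99.2% of its length and cyc-2.1 over 56.4%.

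**Figure D5:**
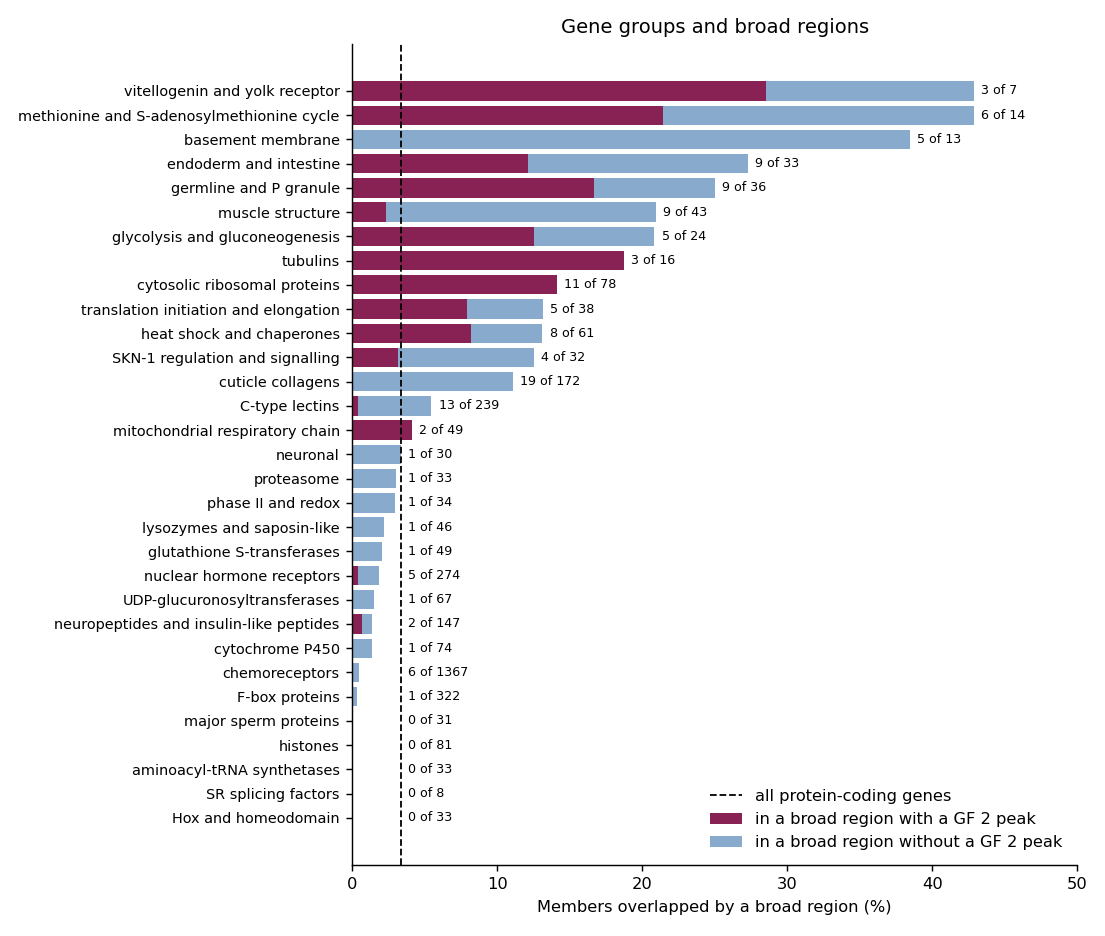
Share of the members of each gene group (%) overlapped by a broad region, split by whether a GF 2 peak lay in such a region, with the 3.33% of all protein-coding genes dashed and the counts beside each bar. All 11 ribosomal protein genes and all 3 tubulin genes fall in regions with a GF 2 peak. None of the 19 cuticle collagens or 5 basement membrane genes does, and of all 665 overlapped genes 162 do.

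The 109 broad regions with a GF 2 peak had another make-up than the 541 without. They lay within 1 gene in 22% of cases (14.6 to 31), against 70.1% (66 to 73.9), took in at least 1 gene whole in 29.4%, against 3.14%, and overlapped more than 1 gene in 47.7%, against 9.24%. The gene with most overlap had a median length of 2375 bp, against 5145 bp. Their midpoints were in the central one of 3 equal parts of the chromosome's called span in 35.8% of cases, against 15.3%. Among narrower merged regions this share was 31.6% under 500 bp, 24.7% from 500 bp to under 1000 bp and 20.8% from 1000 bp to under 1500 bp. Folds in the other lists were higher in the broad regions with a GF 2 peak too, with medians of 1.70 against 1.56 in WT 1, 1.83 against 1.78 in WT 2 and 2.19 against 1.90 in GF 1. The broad regions with a GF 2 peak were also wider, with medians of 2169 and 1913 bp, and a wider region has more room for whole genes, so these shares are not matched for width. GF 2 covered at least 50% of the region in only 31 of the 109. The GF 1 list, of the same genotype, had a peak in 108 of the 109 and in 539 of the 541. The GF 2 list is short, and what sets it apart was not tested.

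The broad regions ranked best by fold in all 4 lists were led by one outside protein-coding genes. It measured 2447 bp at 16929629 to 16932075 on chromosome X. Its fold was 4.23 in WT 1 and 6.2 in WT 2, and 5.48 in GF 1 and 2.34 in GF 2. It held the highest fold of any peak in WT 1, WT 2 and GF 1 and ranked 19 in GF 2, and the lists covered 88.4%, 100%, 88.6% and 82.8% of it. The table has the non-coding RNA gene C30E1.9 there, and the nearest protein-coding gene, C30E1.4, was 1465 bp away. The next were at ahcy-1 with dpf-3 (2.36, 2.95, 4.05 and 2.33), acdh-1 with C55B7.3 (2.47, 2.5, 4.65 and 2.38), rpl-27A with rplp-1 and arl-13 (2.34, 2.44, 4.40 and 2.45) and hsp-1 with nra-1 (3.13, 3.66, 2.68 and 1.80). The cathepsin L gene cpl-1 (2.13, 2.35, 3.59 and 1.95), eef-1A.1 (1.97, 2.56, 3.27 and 2.18) and vit-6 completed the first 8. In 6 of these 7 gene regions the fold was highest in GF 1, and at hsp-1 it was highest in WT 2. Folds from lists of unequal length and unknown depth are not on a common scale, so this order between lists is a description.

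Of the 19 regions of WT 2 and GF 1 alone, the 5 widest lay in long genes. The widest was in unc-44 (3166 bp, chromosome IV, 5988500 to 5991665; folds 1.48 in WT 2 and 1.71 in GF 1). The others of the first 5 were in fer-1, a dysferlin-family gene needed in sperm, in the titin gene ttn-1, in pat-12, an epidermal attachment gene, and in sma-1, which encodes a heavy spectrin. Their folds ran from 1.47 to 1.78. WT 1, the list that breaks broad regions into pieces, had no peak in them.

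A few regions were wide in WT 2 or GF 1 and not in the other. In 616 of the 650 WT 2 and GF 1 each covered at least 50%. In 7 WT 2 covered at least 50% and GF 1 under 20%, and in 1 the reverse held. The 7 included both hsp-4 (2414 bp; 72.9% covered in WT 1, 100% in WT 2 and 18.6% in GF 1) and the heat-inducible Hsp70 gene hsp-70 (2337 bp; 11%, 100% and 11.2%). The folds at hsp-70 were 1.37 in WT 1, 1.95 in WT 2 and 1.57 in GF 1, and WT 1 was nearer to GF 1 than to WT 2. The others were at gcn-2, a kinase gene of the amino acid starvation response, slc-17.2, gei-4, R107.5 and a place on chromosome V without a protein-coding gene. The 1 reverse case was Y43B11AL.1 on chromosome IV (7065168 to 7066982, 1815 bp). It had folds of 2.66 in WT 1 and 4.51 in GF 1, where only 2 broad regions had a higher fold, and no peak in WT 2, the longest list. These regions were picked out after their values were seen.

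Broad regions were few on the X chromosome. Of the 650, 52 were on X (8.0%, 6.03 to 10.4), against 15.8% of all merged regions. The autosomes held between 106 (IV) and 140 (II) each. Of all merged regions on X 0.928% were broad, against a range from 1.64% on V to 2.21% on II for the autosomes. Taking each list by itself, 1.53% of the regions with a WT 1 peak on X were broad, against 4.27% to 5.49% on the autosomes. The shares were 1.51% against 1.95% to 2.58% in WT 2 and 1.29% against 2.51% to 3.20% in GF 1. In GF 2 it was 9 of 61 (14.8%), within the range of 11.5% to 16.1% on the autosomes. By width, 17.2% of regions under 500 bp were on X, 12.1% of those from 500 bp to under 1000 bp and 8.05% of those from 1000 bp to under 1500 bp. Among broad regions the share was 7.29% under 2000 bp, 8.89% from 2000 bp to under 3000 bp and 8.54% at 3000 bp or more. Midpoints of broad regions were in the central one of 3 equal parts of the chromosome's called span in 18.8% of cases (15.8 to 22), against 10435 of the 34780 others.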

How the data were processed

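Peaks were called for each sample by itself, as the authors deposited a separate narrowPeak list for each of the 4 samples analysed. The submitters' processing notes name MACS2 2.2.7.1, BWA 0.7.17, Trim Galore 0.6.4, SAMtools 1.10 and ce10; the control used is not given in the sources. A peak's fold enrichment (a ratio), -log10 p, -log10 q and score are values of the authors, and the lowest deposited -log10 q was 1.3. Names inside the deposited WT 2 list carry the WT replicate 1 label, so its identity rests on the sample record. Merging and gene overlap (at least 1 bp) used Python 3.11.15, NumPy 2.4.6, pandas 2.3.3 and SciPy 1.17.1, with drawing in matplotlib 3.10.9, and were tested on simulated data. Of 3485 names in 31 gene groups, 3484 matched the gene table. Named regions were the 12 widest, 8 by rank sum of fold in all 4 lists, the 5 widest per list combination, 4 either side of 1500 bp and the 5 with most genes, and members of a group were named by covered bases. The members and lists were chosen with earlier results of these data known. Promoter sequences and motifs were not analysed here. Alternatives changed the width, the q threshold, the joining rule, the lists used and the gene positions.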

Additional observations from a re-analysis of the deposited data

How the results depend on the processing

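No paired analysis was possible because no value came from a test. Of 61 recomputed values of the 6 main quantities, 47 stayed within 1.5 times (counts) or within the binomial interval (shares). With a width of 1000 bp there were 1955 regions, of which 10.6% were in all 4 lists, 87.9% held a single peak of that width and 11.7% overlapped more than 1 protein-coding gene. With 2000 bp there were 307, of which 23.8% were in all 4 lists. With a -log10 q of at least 5 the share in all 4 lists was 10.5% and that with a single wide peak 88.7%. With at least 500 bp of the region inside each gene 7.85% overlapped more than 1. Leaving out each list in turn gave 412 (without WT 2) to 644 regions, 16.5% to 96.4% called in all remaining lists (the highest without GF 2), 85.7% to 95% with a single wide peak, 13.9% to 18.2% overlapping more than 1 protein-coding gene, 92.2% to 93.3% overlapping any, and 7.17% to 10.2% on chromosome X. The share overlapping a protein-coding gene was 90.9% to 93.8% under the alternatives run. Of 120 values of 10 gene groups, 106 stayed within 1.5 times. The depth of each library is unknown, so how it limits the width of calls was not tested.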

Other observations

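The 45 broad regions without a protein-coding gene of the table held several of the widest calls. The largest, 5655 bp at 17138448 to 17144102 on chromosome V, contained the microRNA gene mir-257, with folds of 1.70 in WT 1, 1.64 in WT 2 and 2.10 in GF 1, and its nearest protein-coding gene was 10471 bp away. The next 4, at 19270570 to 19275770 on V, 3748725 to 3753761 on X, 792786 to 797535 on V and 913671 to 918375 on IV, overlapped no gene of the table when piRNA genes were left aside, and their highest folds ran from 1.5 to 1.95 over WT 1, WT 2 and GF 1. A region at 15064111 to 15067552 on chromosome I held the ribosomal RNA genes rrn-2.1 and rrn-3.1, with low folds of 1.28, 1.59, 1.30 and 1.32 in WT 1, WT 2, GF 1 and GF 2, and repeated copies of these genes may share reads. Of the 45, 24 overlapped a pseudogene, non-coding RNA or other gene of the table, and 16 lay within 1000 bp of a protein-coding gene.

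Of 634 tRNA genes 6 (0.946%) were overlapped by a broad region, of 346 snoRNA genes 12 (3.47%), of 260 miRNA genes 3 (1.15%) and of 129 snRNA genes 0, against 3.33% of protein-coding genes, with gene length not matched. A GF 2 peak lay in 109 of the 650 broad regions. Of the 12 snoRNA genes, 11 lay in such regions, beside protein-coding genes such as rpl-27A, rpl-4, rplp-0, hsp-1, eef-1G and cgh-1. Y37E3.21 and Y37E3.22 shared the region at rpl-27A, and F17C11.14 and F17C11.15 shared that at eef-1G. The 11 are thus genes in a smaller number of regions and are not directly comparable with 109 of 650 regions. The exception was Y46G5A.40 at pisy-1.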
